A study of Mus musculus with 18 samples.

Results

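The genome-wide map of Pitx1 in mouse hindlimb buds at e11.5 was deposited as a long list of peak summits and as a second, shorter list, and the summits that the second list kept are compared here with those it dropped. A summit is the single base of highest signal in a peak of chromatin immunoprecipitation followed by sequencing (ChIP-seq). Summits were chosen by name: a summit of the longer list was called kept when its name also stood in the second list, and dropped when it did not. Of 54941 summits, 17783 were kept (32.4%) and 37158 were dropped. The buds came from wild-type CD1 embryos, an outbred strain, and were fixed with formaldehyde before the chromatin was sheared by sonication and pulled down with a homemade Pitx1 antibody (960A). A list of 10273 Tbx5 summits from forelimb buds of wild-type CD1 embryos at e10.5, made in the same way with a homemade antibody (NP1723), served as an outside measure. These are 2 of the 18 samples of the series. Each factor has 1 sample, so there is no replicate error, no value below is tested, and each 95% interval covers the counting of summits only. The buds hold mesenchyme, ectoderm, muscle precursors, vessels and nerves together, and a site used in few cells cannot be told apart from a site weakly bound in many.

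Pitx1 is a homeodomain transcription factor made in the hindlimb bud and not in the forelimb bud, and it is known for its part in hindlimb identity, in which it acts with Tbx4. Pitx proteins bind DNA through a homeodomain of the bicoid type, whose preferred core is TAATCC. Tbx5 is the T-box factor of the forelimb bud, related to Tbx4, and is needed for forelimb outgrowth. In limb buds such factors act largely through enhancers, which can lie far from the genes they serve, but they are also found at promoters, the stretches around transcription starts.

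The lists differed most plainly at promoters, so 6 promoter windows are printed first. They are the windows of protein-coding genes with the 3 highest-scoring kept summits and the 3 highest-scoring dropped summits inside a window, and they show what the comparison of motifs below rests on. Each runs from 250 bases before to 50 bases after a transcription start in RefSeq (GRCm38.p6, the assembly of mm10), 5′ to 3′ on the strand of the gene. Capitals mark TAATCC or its reverse complement GGATTA. The kept windows are Eif1ad, a translation initiation factor-like gene that shares this window with Banf1 (chr19:5366563-5366862, plus strand), Gtf2ird1, a transcription factor gene (chr5:134456667-134456966, minus strand), and Mettl3, the catalytic subunit of the RNA m6A methyltransferase (chr14:52305075-52305374, minus strand). The dropped windows are Rps7, a ribosomal protein of the small subunit (chr12:28635904-28636203, minus strand), Atp6v1a, a subunit of the vacuolar proton pump (chr16:44139210-44139509, minus strand), and Hmgb2, a high-mobility-group chromatin protein (chr8:57511593-57511892, plus strand).
Eif1ad (kept): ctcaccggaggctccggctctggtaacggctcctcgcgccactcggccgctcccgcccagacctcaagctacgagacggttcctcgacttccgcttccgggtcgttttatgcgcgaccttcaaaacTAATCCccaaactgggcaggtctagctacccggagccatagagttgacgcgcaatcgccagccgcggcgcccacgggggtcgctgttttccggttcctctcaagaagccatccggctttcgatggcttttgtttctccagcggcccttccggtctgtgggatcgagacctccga
Gtf2ird1 (kept): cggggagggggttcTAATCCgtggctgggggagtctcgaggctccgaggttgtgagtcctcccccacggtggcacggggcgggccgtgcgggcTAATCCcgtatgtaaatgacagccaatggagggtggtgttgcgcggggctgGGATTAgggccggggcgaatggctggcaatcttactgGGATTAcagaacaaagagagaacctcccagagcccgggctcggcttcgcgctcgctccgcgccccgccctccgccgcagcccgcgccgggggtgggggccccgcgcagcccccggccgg
Mettl3 (kept): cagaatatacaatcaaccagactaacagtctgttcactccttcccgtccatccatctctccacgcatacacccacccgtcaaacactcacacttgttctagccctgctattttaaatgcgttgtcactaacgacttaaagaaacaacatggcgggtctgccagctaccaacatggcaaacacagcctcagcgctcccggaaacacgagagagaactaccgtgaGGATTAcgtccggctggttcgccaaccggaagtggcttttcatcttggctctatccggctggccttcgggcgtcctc
Rps7 (dropped): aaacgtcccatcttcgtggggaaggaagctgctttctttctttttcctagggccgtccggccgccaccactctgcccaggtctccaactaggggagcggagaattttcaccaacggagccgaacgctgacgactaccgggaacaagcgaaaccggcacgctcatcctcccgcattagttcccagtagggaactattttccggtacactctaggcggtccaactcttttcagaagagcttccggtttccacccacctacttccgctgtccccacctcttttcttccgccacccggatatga
Atp6v1a (dropped): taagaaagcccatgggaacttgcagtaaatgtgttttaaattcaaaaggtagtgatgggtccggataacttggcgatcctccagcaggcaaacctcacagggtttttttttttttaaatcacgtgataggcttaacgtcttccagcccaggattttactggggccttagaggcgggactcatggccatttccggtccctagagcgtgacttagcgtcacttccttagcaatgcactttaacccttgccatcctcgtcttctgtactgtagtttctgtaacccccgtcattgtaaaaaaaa
Hmgb2 (dropped): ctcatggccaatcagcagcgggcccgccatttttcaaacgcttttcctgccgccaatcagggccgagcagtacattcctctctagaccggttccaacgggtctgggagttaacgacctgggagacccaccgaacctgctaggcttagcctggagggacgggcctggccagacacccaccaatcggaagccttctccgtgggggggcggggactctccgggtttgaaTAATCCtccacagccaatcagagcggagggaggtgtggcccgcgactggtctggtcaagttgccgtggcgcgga
The summit in the Eif1ad window scored 769 in the authors' −log10 q, the highest of the whole list, and lay at base 278 of the window. That in the Gtf2ird1 window scored 590 and lay at base 70, and that in the Mettl3 window scored 415 and lay at base 232, next to the motif that starts at base 224. The dropped summits scored 128 at Rps7, 115 at Atp6v1a and 113 at Hmgb2. The Gtf2ird1 window holds 4 matches, the windows of Eif1ad, Mettl3 and Hmgb2 1 each, and those of Rps7 and Atp6v1a 0.

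The second list contained more of the high-scoring summits. The median score was 19.7 among kept summits (quartiles 9.54 and 40.2) and 5.13 among dropped ones (quartiles 3.35 and 8.28). The list was divided at the deciles of the score into 10 classes of 3479 to 6916 summits, unequal because equal scores share a class, class 1 being the lowest and class 10 the top class. The share kept was 4.55% (95% interval 3.92 to 5.24) in class 1, 15.7% (14.9 to 16.6) in class 5, 48.1% (46.9 to 49.4) in class 8, 71.2% (70.0 to 72.3) in class 9 and 93.4% (92.7 to 94.0) in class 10. Score alone did not set the division: summits as low as 1.64 were kept, and 370 summits of the top class were dropped, up to a score of 534. Because the shares in the list were set by the authors' choice of summits, they are a description. Everything below therefore compares kept and dropped summits of the same score class, or sets a number kept beside the number that the score classes of those summits would give.

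**Figure D1:**
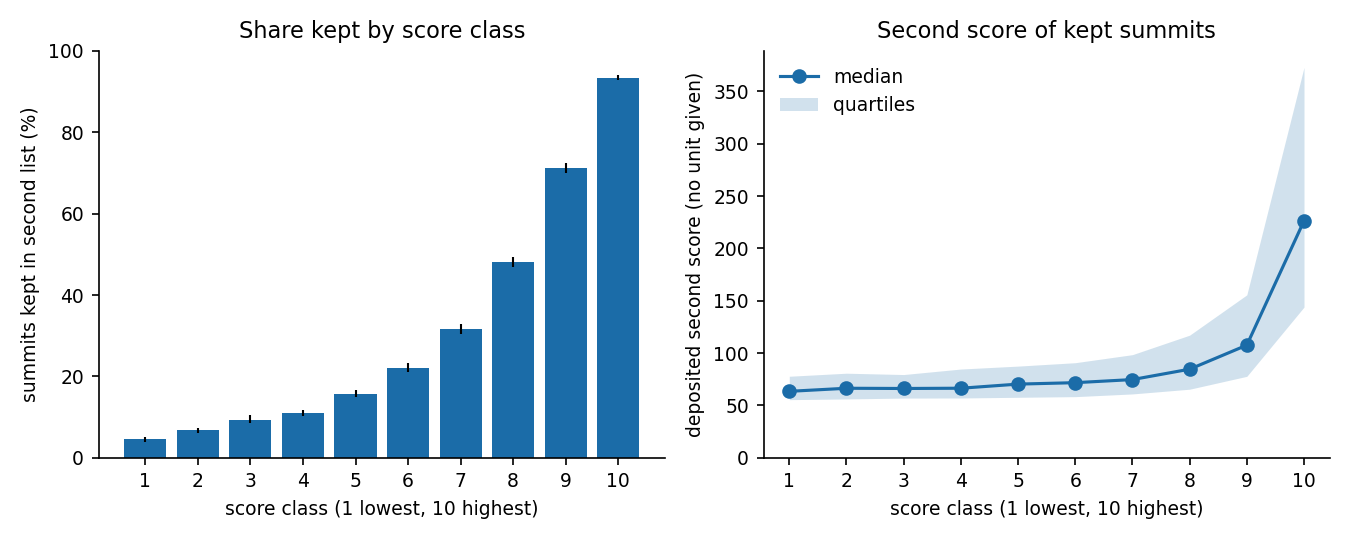
Left, share of summits kept in the second list (%, bars, with exact 95% intervals) against score class. Right, median and quartiles of the second deposited score of kept summits against score class. The share kept rises from 4.55% to 93.4%, and the median second score stays between 63.5 and 74.8 up to class 7 and reaches 226 in class 10. No second score lies below 50.01.

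Each kept summit carries a further score and a pair of offsets in bp that the sources used here do not explain. Reading the offsets as the distances from the summit to the borders of an interval around it gave 17743 distinct intervals. Of these, 40 held 2 kept summits, and in all 40 the pair had the same further score. No dropped summit lay inside any interval. With the offsets read in the opposite direction, 17783 distinct intervals resulted, and 32 dropped summits lay inside them. A kept summit can thus be described as one that lies within an interval with a score of its own, the second score. Since the intervals belong to the division itself, these counts describe it and support nothing. The median interval was 386 to 409 bp wide in classes 1 to 6 and 644 bp wide in the top class, and the summit lay a median of 45.2 to 62.5 bp from its centre.

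Second scores ran from 50.01 to 2501 (median 100.8, quartiles 69.2 and 175), and dropped summits have none. Across the 17783 kept summits the rank correlation of both scores was 0.68 (Spearman's rho, as a description). In class 10 rho was 0.61 (n = 5229), in class 9 it was 0.21 (n = 4140), and in classes 1 to 5 it lay between -0.01 and 0.03. Class 10 spans scores of 35.4 to 769, and class 3 only 3.83 to 4.32, with many equal scores. So narrow a range limits rho. Second scores also began at 50.01 to 50.14 in every class, with medians of 63.5 to 70.4 in classes 1 to 5. Such a lower limit can hold rho down as well, and these values do not show where the relation comes from. Both scores are measured at the same places and may share the local depth of reads. The highest second score, 2501, was at chromosome 7, position 98957463, inside Uvrag, a gene of autophagy, with a Tbx5 summit 127 bp away. A second score of 2369 was found inside Agbl1 on chromosome 7 and one of 1903 inside Col8a1, a collagen gene, on chromosome 16. A summit on chromosome 12 at position 36793938, 104 kb from the nearest protein-coding gene, had a second score of 1998 and a Tbx5 summit 2 bp away. Of the 8 highest second scores, none was within 20 kb of a gene start.

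Dropped summits lay at gene starts more often than kept summits of the same score class. Starts were those of the RefSeq promoter windows, which cover 79.9% of the protein-coding genes. Within 1 kb of a gene start were 8.13% of kept and 15.7% of dropped summits after weighting both to the score classes of the whole list, a difference of -7.61 percentage points (-8.47 to -6.76). The dropped share was the higher in 10 of 10 classes. The gap was widest at high scores: in class 1, 7.73% of kept summits (14 of 181) and 11.1% of dropped ones (422 of 3801) lay at a start, and in the top class 5.58% (4.98 to 6.24; 292 of 5229) and 29.7% (25.1 to 34.7; 110 of 370). Counting either end of a gene, as a table without strand requires, gave 10.04% and 17.8%. Gene ends over 1 kb from a listed start showed a smaller difference, 3.74% against 5.0%, with kept summits lower in 8 of 10 classes.

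**Figure D2:**
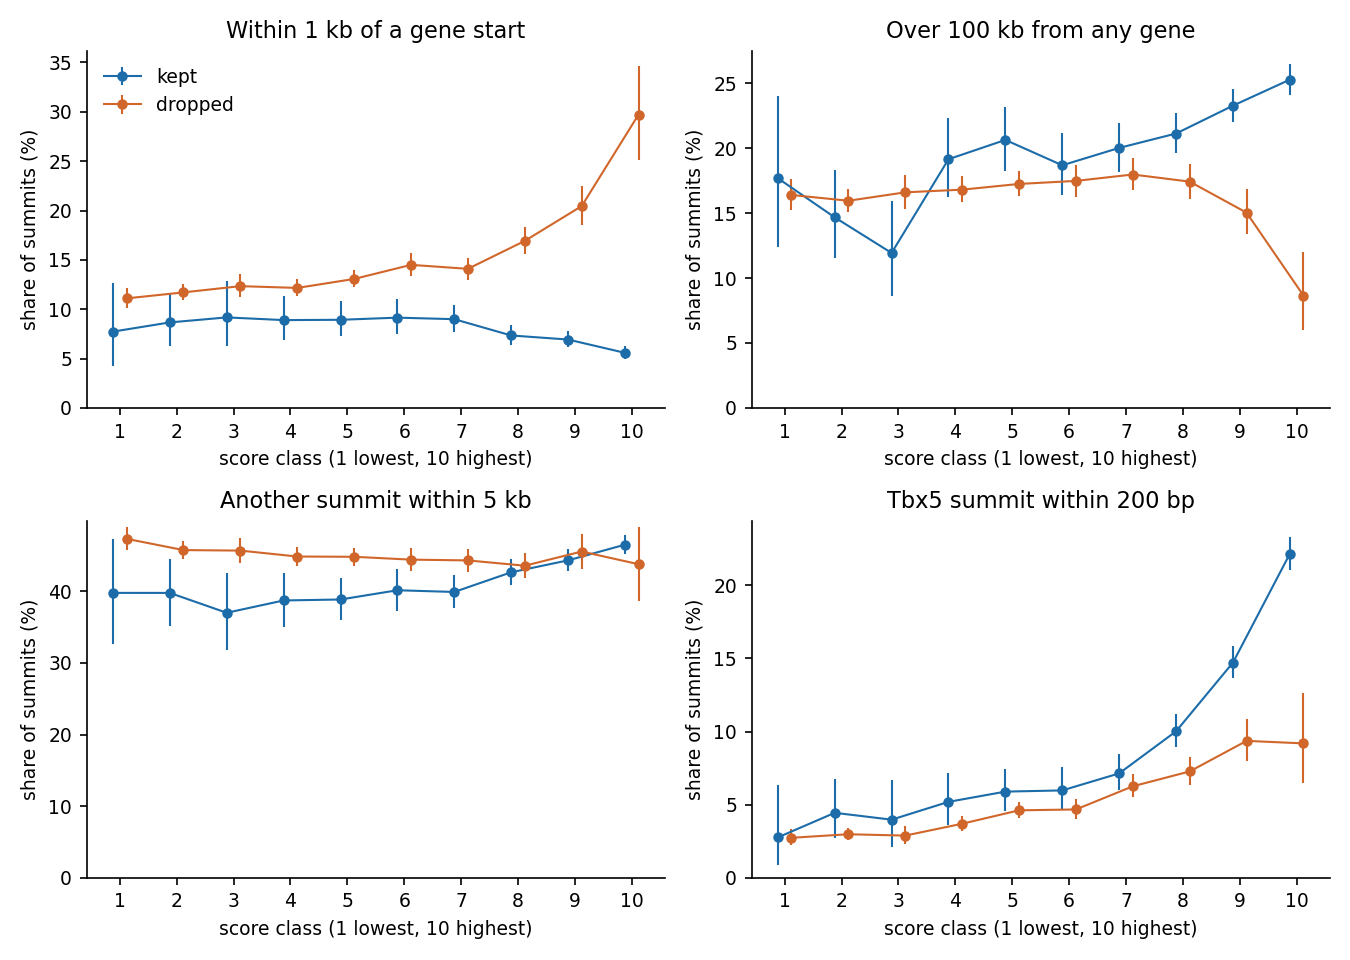
Share of kept (blue) and dropped (orange) summits (%, with exact 95% intervals) that lie within 1 kb of a gene start, over 100 kb from any protein-coding gene, within 5 kb of another summit, or within 200 bp of a Tbx5 summit, against score class. In the top class 5.58% of kept and 29.7% of dropped summits lie at a gene start, and 22.1% and 9.19% have a Tbx5 summit. Within that class kept summits score higher than dropped ones (medians 61.9 and 45.2).

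In the top class the share kept was lowest next to the gene start and highest over 100 kb from it. Of the top class, 68.1% of the 141 summits less than 100 bp from a start were kept (59.7 to 75.7), 74.2% at 100 to 500 bp, 77.6% at 500 to 1000 bp, 87.2% at 1 to 2 kb, 85.9% at 2 to 5 kb, 90.4% at 5 to 10 kb, 92.3% at 10 to 50 kb, 95.8% at 50 to 100 kb and 96.8% of the 2584 summits over 100 kb away (96.1 to 97.5), against 93.4% for the class as a whole. Among all summits the share kept was 27.1% under 100 bp, where the score classes give 36.7%, 21.1% at 100 to 500 bp, where they give 30.0%, and lowest at 500 to 1000 bp, 14.8% (13.3 to 16.4), where they give 24.0%. It stood below the value from score in each distance class up to 10 kb and above it in each class beyond 10 kb. Because kept summits of the top class also had higher scores than the dropped ones (medians 61.9 and 45.2), that class was divided again by score into 4 groups of about equal size. The share kept at starts and away from starts was 64.5% and 90.0% in the lowest group, 70.1% and 94.3% in the next, 73.9% and 96.9% in the third, and 89.0% and 98.3% in the highest, whose scores begin at 94.1. The intervals for starts and for other places did not overlap in any of these 4 groups.

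**Figure D3:**
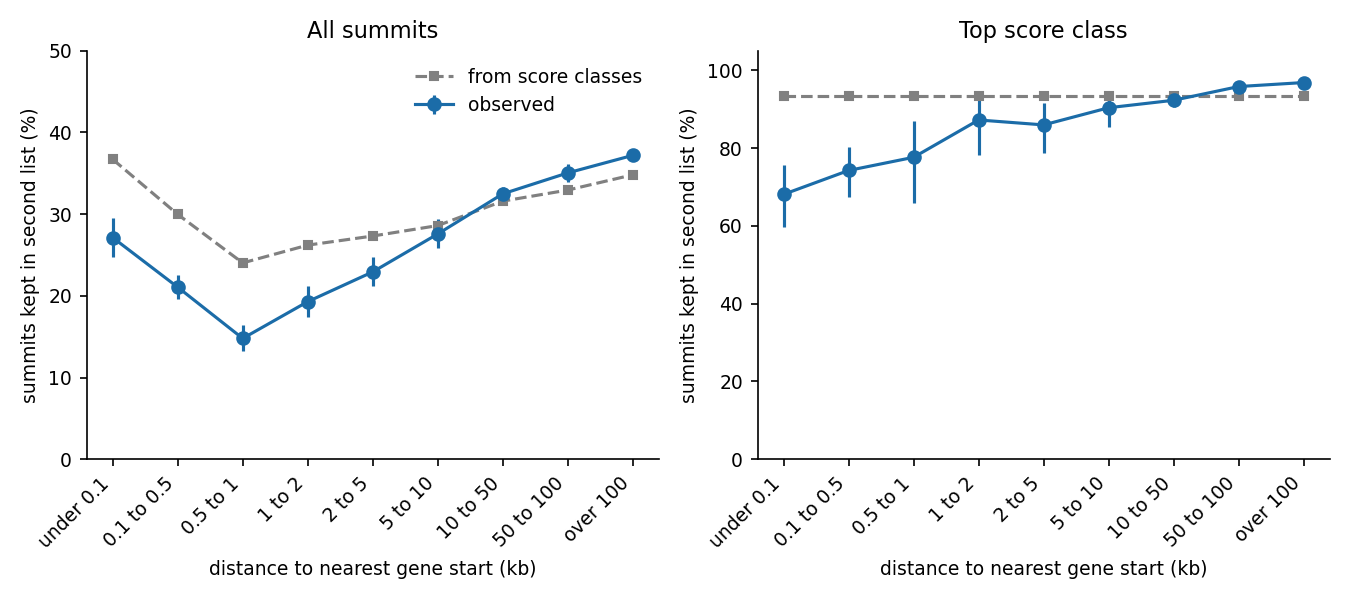
Share of summits kept (%, blue, with exact 95% intervals) and share that the score classes give (grey) against distance to the nearest gene start in kb, for all summits and for the top class. The observed share lies below the grey line up to 10 kb from a start in both panels, with the lowest value of the top class, 68.1%, under 0.1 kb.

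At promoters that had a summit, the windows with a kept one held the Pitx core more often. Of 21263 windows of 17492 protein-coding genes, TAATCC was searched on both strands, that is, as TAATCC or GGATTA, and was found in 6.42%. Some windows overlap and so share a summit. It was present in 5.62% of 18773 windows without a summit, in 22.9% (19.8 to 26.2) of 690 windows with a kept summit and in 8.50% (7.25 to 9.88) of 1800 windows with dropped summits only. Weighted to the same score classes, by the strongest summit of each window, the shares were 16.6% and 9.25%, a difference of 7.38 points (3.88 to 10.9), with the kept share the higher in 8 of 10 classes. Among windows whose strongest summit was in class 10, 41.6% of 190 with a kept summit held the core, against 15.1% of 73 with dropped summits only. Class 10 was not divided again by score here. Its kept summits as a whole scored higher than its dropped ones (medians 61.9 and 45.2), so these shares are not compared at equal score. Where a core was present, it lay a median of 34 bp from the summit in windows with a kept one (n = 158) and 40.5 bp in the others (n = 153).

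**Figure D4:**
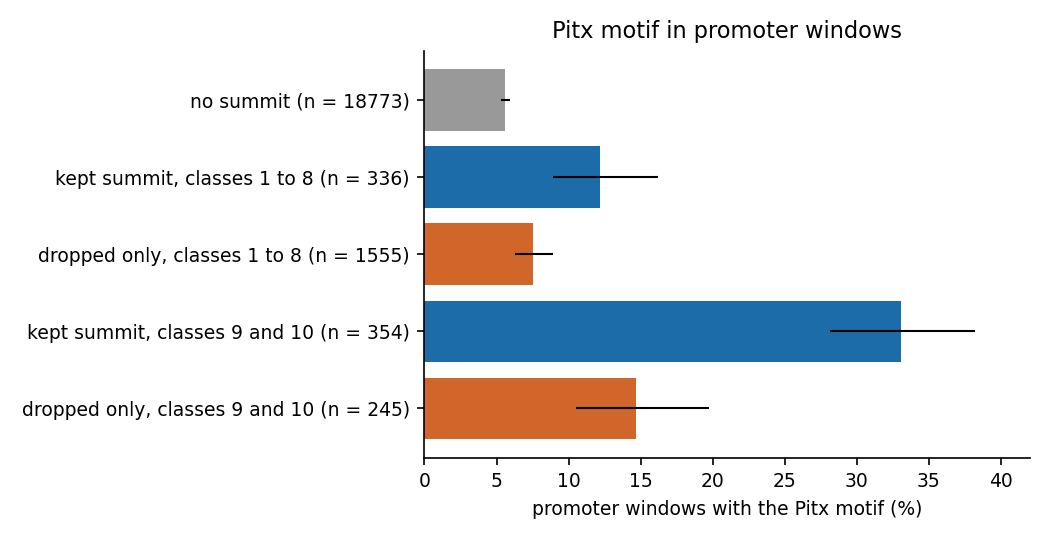
Share of promoter windows of 300 bases (%, with exact 95% intervals) that hold the Pitx core, for windows without a summit and for windows with a kept summit or with dropped summits only, in score classes 1 to 8 and in score classes 9 and 10. In classes 9 and 10 together, 33.1% of windows with a kept summit and 14.7% of those with dropped summits only hold it. Within these groups of classes the shares are not compared at equal score.

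Base composition was alike in these windows. The median GC content was 56.7% in windows with a kept summit and 56.7% in those with dropped summits only, and both had a median of 17 CpG. A further 7 motifs were searched on both strands. TAATTA shares its first 4 letters with TAATCC, and no motif of the 8 contains another. TAATTA, the core of many other homeodomain proteins, was in 4.06% (2.71 to 5.81) of windows with a kept summit, 4.39% (3.49 to 5.44) of those with dropped summits only and 4.53% of all. GGTGTG, the core of T-box sites, was in 15.4%, 15.1% and 18.4%, in the same order. GGGCGG, the GC box of Sp factors, was in 51.6%, 52.1% and 46.2%, and CCAAT, bound by NF-Y, in 47.5%, 48.3% and 38.2%. CCGGAAG, a core of ETS factors, was in 26.5%, 27.5% and 11.6%. In classes 9 and 10, CCGGAAG was in 29.1% (24.4 to 34.1) of windows with a kept summit and 38.4% (32.2 to 44.8) of those with dropped summits only, and these intervals overlap. TGACGTCA, the cyclic AMP response element, was in 4.64%, 3.83% and 2.23%, and TATAAA in 8.99%, 8.17% and 12.6%. In classes 9 and 10, TATAAA was in 11.3% (8.20 to 15.1) of windows with a kept summit and 5.71% (3.16 to 9.40) of those with dropped summits only, again with overlapping intervals. Overlap of separate intervals does not show that shares are equal, so CCGGAAG and TATAAA may differ there too. A match is a sequence of letters and not a shown binding site.

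Kept summits had a Tbx5 summit within 200 bp more often than dropped summits of the same score class. The weighted shares were 8.46% and 5.50%, a difference of 2.96 points (2.34 to 3.58), and the kept share was the higher in 10 of 10 classes. In the top class 22.1% of kept summits (21.0 to 23.3; 1158 of 5229) and 9.19% of dropped ones (6.45 to 12.6; 34 of 370) had one, whereas in class 1 the shares were 2.76% and 2.74%. Away from gene starts, 98.2% of the 1149 summits of the top class with a Tbx5 summit were kept (97.2 to 98.9), against 94.1% of the 4048 without (93.3 to 94.8). At gene starts the shares were 69.8% of 43 (53.9 to 82.8) and 73.0% of 359 (68.1 to 77.5), and these intervals overlap. The top class was not divided again by score here. Its kept summits scored higher than its dropped ones (medians 61.9 and 45.2), so its shares are not compared at equal score. With 50 score classes in place of 10, the weighted difference was 3.05 points (2.46 to 3.65). No source used here gives the Tbx5 library a part in the division, but how the second list was made is not stated, and the libraries differ in factor, limb, stage and antibody at once, which cannot be told apart.

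Since the shares of all positions add up to the whole list, the excess of dropped summits at gene ends has to be met by an excess of kept ones elsewhere. It stood deep inside genes and in gene deserts. Inside a protein-coding gene and over 1 kb from its ends were 44.4% of kept and 40.5% of dropped summits, a difference of 3.86 points (2.56 to 5.17), higher for kept in 10 of 10 classes. Outside genes, over 1 kb and up to 100 kb away, the difference was 0.32 points (-0.85 to 1.48). Over 100 kb from any protein-coding gene were 19.5% and 15.9%, a difference of 3.61 points (2.65 to 4.57), higher for kept in 8 of 10 classes. These desert shares were 25.3% and 8.65% in the top class, where kept summits also scored higher than dropped ones. With 50 score classes in place of 10, the overall desert difference was 3.68 points (2.69 to 4.68). The overall desert difference fell to 0.41 points (-0.0014 to 0.83) when non-coding genes were counted as genes too, and was 1.95 points at a distance of 200 kb. The share inside genes at any place differed by -0.72 points (-2.04 to 0.60), and by 0.42 points (-1.01 to 1.85) among summits over 1 kb from a gene start, where the desert difference was 2.51 points. The second score belongs to the second list itself, and its lowest value lay between 50.01 and 50.14 in every class. Its differences among kept summits therefore describe the division and are no separate support. Its median was lower at gene starts than elsewhere in 8 of 10 classes, with 124 against 236 in the top class. In deserts it was higher than elsewhere in 8 of 10 classes, with 252 against 218 in the top class. With a Tbx5 summit it was also higher in 8 of 10 classes, with 94.1 against 83.8 in class 8 and 273 against 216 in the top class. In the top class the score itself differed in the same directions, with medians of 54.4 at gene starts against 61.9 elsewhere. Its medians were 64.1 in deserts against 60.8 elsewhere, and 71.9 with a Tbx5 summit against 59.8 without. The second scores of the top class are therefore not compared at equal score.

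Crowding differed in the lower score classes. Another summit of the longer list lay within 5 kb of 40.9% of kept and 44.9% of dropped summits, a difference of -4.03 points (-5.33 to -2.73). In classes 1 to 7 the difference lay between -8.68 and -4.27 points. In class 8 it was -0.92 points, in class 9 it was -1.23 and in class 10 it was 2.73. The intervals of kept and dropped shares overlapped in classes 1, 6, 8, 9 and 10, which does not show equal shares there. Neighbours tended to share their fate slightly. Where the nearest summit lay within 2 kb, it was kept for 31.6% of kept summits, against 30.0% from its own score, and for 25.6% of dropped summits, against 28.9%. With a distance of 20 kb in place of 5 kb, the difference in crowding was -1.19 points (-2.38 to 0.0099). Of the 370 dropped summits of the top class, 7 (1.89%) had a kept summit within 2 kb. Among all 37158 dropped summits, 2661 had a kept one as their nearest summit within 2 kb.

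Of 21887 protein-coding genes, 5742 had at least 1 kept summit, 6191 had dropped summits only and 9954 had none, when each summit was assigned to the nearest gene up to 100 kb away. If the fate of each summit followed its score class alone, 6316 genes would have a kept summit. Genes with a single summit fell short of that number: of 5078, 1177 had it kept against 1491 from score. For the 2337 whose summit lay at a gene start, 477 were kept against 736, and for the other 2741, 700 against 755. Genes with a kept summit had a median of 4 summits and a median length of 45.2 kb, and genes with dropped summits only a median of 1 summit and a length of 21.1 kb.

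The genes with the most kept summits were long. Auts2, a regulator of transcription in neurons that also belongs to a Polycomb complex, had 51 of 109 kept, against 40.3 from score. Nfia, a nuclear factor I gene, had 29 of 61 kept against 23.9, and Slit3, a guidance ligand, 27 of 60 against 20.8. Lrmda had 31 of 88 kept against 34.5, Rad51b, a recombination gene, 30 of 72 against 30.2, Tenm3 30 of 83 against 30.0, and Mecom, a zinc finger transcription factor gene, 29 of 81 against 29.5. Tenm4 had 27 of 61 against 25.9, Macrod2 26 of 73 against 26.4 and Wwox 25 of 70 against 23.5.

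Among the 286 genes with 20 or more summits, the ratio of kept summits to the number from score had a median of 1.04 and ran from 0 to 2.14. The highest ratios were at Cdh13, an anchored cadherin (17 of 23 kept against 7.93), Sema6a, a semaphorin (12 of 27 against 6.56), and Slc7a11, a cystine transporter (14 of 21 against 8.18). Pard3, a cell polarity gene, followed with 20 of 33 against 12.6, Nfatc1 with 9 of 20 against 5.66 and Gfra1, a GDNF receptor, with 10 of 20 against 6.32. At the other end, 0 of 21 summits were kept at Disp1, whose product releases Hedgehog ligands from the cells that make them, against 6.64 from score, although its strongest summit scored 97.7. Tbx5, the forelimb factor itself, had 2 of 23 kept against 5.40, Nxn 2 of 21 against 5.32 and Stard13 3 of 21 against 6.91. These genes were picked as the extremes of the ratio, so the ratios describe them.

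Most limb lists were kept at a share whose interval holds the share from score. In the hindlimb identity list, 30 of 82 summits were kept (36.6%, 26.2 to 48.0) against 29.2 from score. All 7 genes had a kept summit, against 48.1% of all genes with a summit. These 7 had 4 to 19 summits each, and more summits give more chances of a kept one. Pitx1 itself had 8 of 19 kept against 6.54 and Tbx4, its partner in the hindlimb bud, 9 of 19 against 8.09. Isl1, which acts upstream of hindlimb outgrowth, had 2 of 15 against 3.87, and its strongest summit, with a score of 82.2, was dropped. The forelimb list of Tbx5, Hoxc4, Hoxc5 and Hoxc6 had 9 of 51 kept (17.6%, 8.40 to 30.9) against 12.8. Among shared limb transcription factors 205 of 609 were kept against 210, with 14 of 33 at Pknox2, 11 of 34 at Hand2 and 10 of 30 at Meis1. In limb signalling 102 of 273 were kept against 100. Fgfr2, a receptor for FGF, had 10 of 26 and Ptch1, the Hedgehog receptor, 9 of 26, both near the number from score. Rarb, a retinoic acid receptor, had 6 of 31 against 8.57, and Etv5, a target of FGF signalling, 0 of 5 against 1.13, with 3 of the 5 at a gene start.

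Genes of the ectoderm and its apical ridge were the list with the lowest kept share. Of their 111 summits 10 were kept, 9.01% (4.41 to 15.9), against 24.5 summits or 22.0% from score and 32.4% over all summits. Of 19 genes with a summit, 13 had dropped summits only, against 6191 of all 11933 genes with a summit. Of the 19, 1, Grhl3, had more kept than its scores give. Sp8 and Sp9, zinc finger genes of the ridge, had 0 of 12 and 0 of 10 kept, Dlx5 0 of 6 and its neighbour Dlx6 1 of 18. Trp63, a regulator of stratified epithelium, had 0 of 7 and Grhl2, an epithelial transcription factor, 0 of 5. Bmp5 had 3 of 9, En1, a marker of ventral ectoderm, 2 of 9, and Grhl3 2 of 7. Of the list's summits, 6.31% were within 1 kb of a gene start, and away from starts 9 of 104 were kept, 0.38 times the number from score there. Several of these genes are also used outside the ectoderm, Dlx5 and Dlx6 in skeletal precursors among them.

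The remaining lists stood closer to their scores than the ectoderm list, though the interval for ribosomal protein genes also ended below their share from score. The posterior Hoxa and Hoxd list, of genes with a part in patterning along the limb, had 17 of 47 kept against 17.3. All 4 summits of Hoxa10 were kept, against 2.58 from score. At Hoxd11, Hoxd12 and Hoxd13 together 0 of 9 were kept, against 1.03, 0.22 and 1.29 from score. These are small counts. Chondrogenesis genes had 126 of 392 against 139, with 21 of 59 at Sox5 and 20 of 52 at Sox6, both partners of Sox9 in cartilage, and 15 of 49 at Foxp1. Muscle genes had 39 of 157 against 45.9. Pax3, which marks muscle precursors, had 8 of 22 and Eya4 10 of 26, both above the number from score, while Mef2c had 2 of 24 against 4.27 and Lbx1, needed for muscle precursors to migrate into the limb, 0 of 10 against 1.76. Endothelial genes had 23 of 73 against 20.2, with 9 of 19 at Fli1 and 7 of 21 at Erg. Flt1, a VEGF receptor, had 0 of 5 and Kdr, another, 1 of 7. Neural and neural crest genes had 19 of 65 against 15.9 and blood genes 6 of 13 against 4.42. Ribosomal protein genes had 28 of 132 kept (21.2%, 14.6 to 29.2) against 39.1 or 29.6% from score. Of their summits, 40.9% were within 1 kb of a gene start. Away from starts 16 of 78 were kept, 0.74 times the number from score there, against 0.72 times over all their summits. Housekeeping genes had 9 of 34 against 12.2 and odorant receptor genes 12 of 44 against 14.5.

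**Figure D5:**
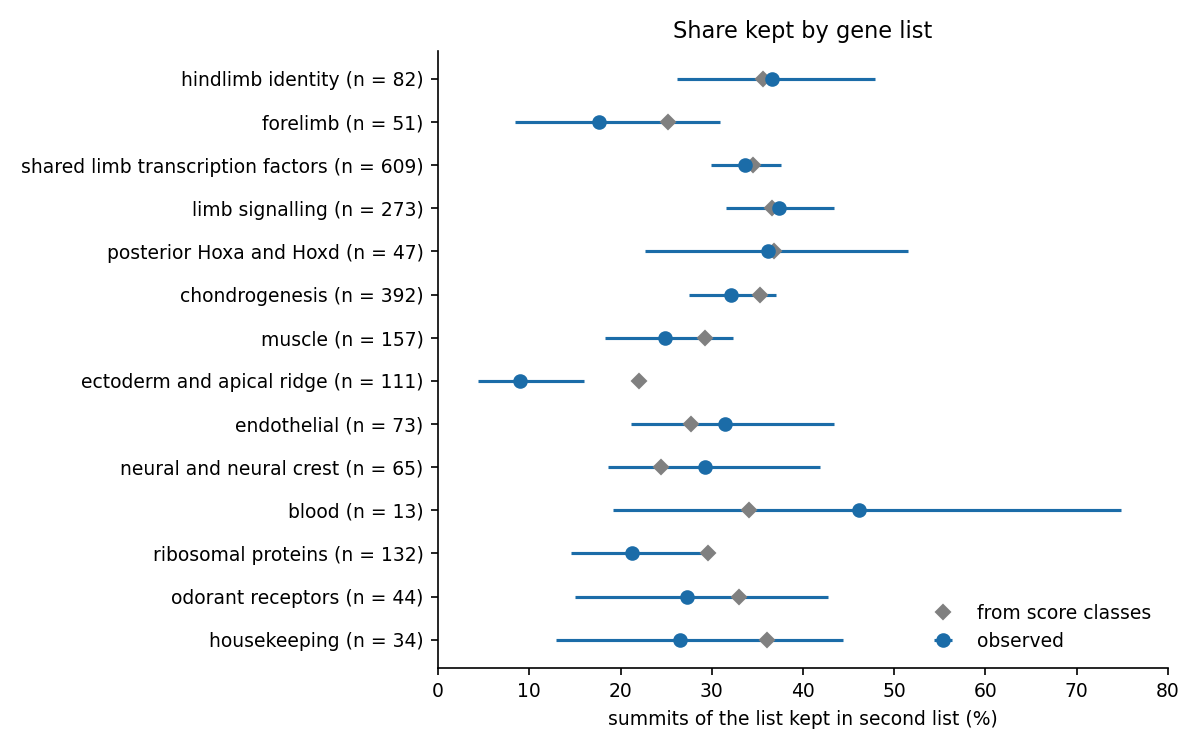
Share of each gene list's summits kept (%, blue, with exact 95% intervals) and the share that their score classes give (grey), with the number of summits in brackets. The ectoderm and apical ridge list is kept at 9.01%, with an interval that ends at 15.9%, below the 22.0% from score. The grey mark also lies above the interval for ribosomal protein genes and inside it for the other 12 lists.

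In places the second list skipped whole stretches of the genome. Runs of consecutive dropped summits in which the scores give 7 or more kept ones were found 10 times, by a rule set after the values were seen, and hold 499 summits, or 1.34% of all dropped. The largest is chromosome Y, where 0 of 106 summits were kept against 23.0 from score, a count of 0 that allows a share of up to 2.83% by 3 counts of the total and 3.42% by the exact 95% interval. On chromosome X 206 of 809 were kept against 222. The next run covers 62 summits at chr4:41762807-42999569, against 18.6 from score, where Ccl21b and Ccl21d, chemokine genes, and Il11ra2 lie in several copies, and 12 of them are in class 10. Others hold 68 summits at chrX:123045672-126775236, around the Cldn34c genes, 88 at chr8:19681028-20995578, around Defb33, a defensin gene, and Gm21119, and 26 at chr4:59721673-61811315, which holds the Mup genes of major urinary proteins. The run at chr14:3207456-7569693 has 51 summits, and those at chr13:119599073-120096332 and chr3:96333894-96905315 have 23 and 24. Several of these stretches carry gene families in near-identical copies, where reads can be split between copies, so their summits are uncertain. The part of such copies in the division was not tested.

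A pair of runs lies at developmental genes. At chr1:182670792-183547461, 29 summits were dropped in a row against 7.93 from score, 21 of them at Disp1. At chr2:74620053-74688385, in the posterior end of the HoxD cluster, 22 were dropped in a row against 7.48, with 12 at Evx2, 4 at Hoxd13, 2 at Hoxd12, 3 at Hoxd11 and 1 at Hoxd10. Their highest score was 37.3. In the same cluster Hoxd10 had 3 of 7 kept against 1.63, Hoxd9 2 of 5 against 2.23 and Hoxd8 0 of 4 against 0.55. In the HoxA cluster Hoxa13 had 4 of 15 kept against 4.37, Hoxa11 2 of 4, Hoxa10 4 of 4 and Hoxa9 2 of 3, with a score of 510 and a second score of 1418 at its strongest.

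Sim1, a transcription factor gene of the hypothalamus, also had many summits and none kept (0 of 13 against 3.34). Gm52481 and Gm20830 on chromosome Y had 0 of 29 and 0 of 13, and Gm21119 and Gm40469 in the run on chromosome 8 had 0 of 27 and 0 of 15.

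The strongest dropped summit, with a score of 534 and rank 13 of the whole list, lay at chromosome 1, position 74332938, inside Pnkd and 328 bp from a gene start. The next scored 470 at chromosome 9, position 35559482, inside Pus3, a pseudouridine synthase gene, 922 bp from a start. A summit scoring 297 lay 4.80 kb outside Actg1, a cytoplasmic actin gene, one scoring 186 lay 779 bp from a start at Gga1, and one scoring 152 lay 12.7 kb outside Ssh1, a cofilin phosphatase gene. Scores of 149 near Ccl21a, 144 near Borcs6 and 144 near Qrfprl followed. At the other end, kept summits with the lowest score, 1.64, were inside Nck2, Tanc1, Jakmip3 and Tenm3 and near Hsfy2, and one 0.66 kb outside Eef1b2 scored 2.03. Their second scores lay between 53.8 and 75.1, near the lowest value of the second list.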

How the data were processed

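Both Pitx1 lists and the Tbx5 list hold summits on mm10 without headers. Per the submitters' processing notes, which give no role or order, the authors used MACS2 2.1.1.20160309, HOMER, Bowtie2 2.2.6 and Bowtie 1.1.2. The score is taken as the −log10 of a q-value as MACS2 writes it, from the layout and lowest value of the deposited files. The second score has no unit in the deposited files, and the sources used here do not say what it means. The suffix of the second Pitx1 list and the Tbx5 peak names contain "rep2". Whether another library was used is not given. Read depth is unknown.

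The members and gene lists were chosen with earlier results of these data known. Summits were joined by name and matched to a RefSeq table of GRCm38.p6 with 21887 protein-coding genes (both ends, no strand) and to its promoter windows for gene starts. Shares of kept and dropped summits were weighted to the score classes of all 54941 summits, and the number "from score" is the sum of the kept shares of a set's score classes. Intervals are exact Clopper-Pearson 95% intervals for shares and normal ones for differences, for counting error only. Where separate intervals are said to overlap, that does not show the shares to be equal. Python 3.11.15, pandas 2.3.3 and scipy 1.17.1 were used. The weighting was tested on simulated data with known answers, and the distances against a direct recalculation for a sample of the summits. The simulated shares depended on score class and fate only, so differences in score within a class were not covered.

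Named genes were, by rule, in each list the 3 with the most summits and any with at least 5 summits and none kept, the 10 with the most kept summits, the 8 with the most summits and none kept, the 6 highest and 6 lowest ratios among genes with at least 20 summits, the genes at the 8 highest-scoring dropped, 8 lowest-scoring kept and 8 highest second-score summits, and those of the printed windows. Of these, 1 gene is not reported here. Other genes named in the lists, the Hox genes side by side and the runs of dropped summits were chosen after their values were seen. The measures on gene starts and the motif counts were added after the data were seen, since a promoter table came with the reference. Alternatives were the number of score classes, a minimum score, autosomes only and other distances.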

Additional observations from a re-analysis of the deposited data

How the results depend on the processing

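No paired analysis was possible because each factor has 1 sample, and for the same reason no replicate could be left out. Of 92 alternative values, 79 stayed within the counting interval of the value reported (for numbers of genes, within 1.5 times), and 13 moved outside it. No value with an interval clear of no difference changed direction. Values with an interval that spans it did: the share inside genes went from -0.72 to 0.42 points over 1 kb from a gene start, the ratio of kept to score-given summits went from 1.02 to 0.97 (20 kb) and 0.98 (away from starts) for limb signalling, and that for neural and neural crest genes from above 1 to 0.93 (20 kb). With a minimum score of 5, the difference kept minus dropped became -10.8 points for gene ends, 5.80 for deserts, -2.67 for another summit within 5 kb and 4.10 for Tbx5. With other distances it became -5.45 (500 bp) and -12.2 (5 kb) for gene ends, 4.68 (50 kb) and 1.95 (200 kb) for deserts, -1.19 (20 kb, -2.38 to 0.0099) for another summit and 2.32 (100 bp) for Tbx5. With all genes of the table, non-coding ones included, it was -9.01 for gene ends and 0.41 (-0.0014 to 0.83) for deserts, so the desert difference depends on counting protein-coding genes only. Among alternatives chosen after seeing the data, gene starts in place of gene ends gave -7.61, and leaving out summits within 1 kb of a gene start gave 2.51 for deserts and 3.13 for Tbx5. Leaving out 23 bins of 1 Mb with 10 or more summits and none kept gave -7.90 for gene ends and 2.89 for Tbx5. Depth limits what dropped means: a site absent from the second list is not shown to be unbound.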
